A study of Phaseolus coccineus with 4 samples.

Results

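WRKY proteins are plant transcription factors that carry the conserved domain they are named for and bind a short promoter element, the W box. The family is best known for defence and for responses to drought, salt and cold, and many members are activated by mitogen-activated protein kinase cascades. It also has a known part in seeds: in Arabidopsis, WRKY2 acts in the zygote upstream of homeobox genes that pattern the early embryo and suspensor, and a further WRKY gene, MINI3, acts in the endosperm on seed size. Numbers in soybean gene symbols do not follow those of Arabidopsis, so soybean WRKY2 or WRKY10 need not be the counterpart of an Arabidopsis gene of that number.

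The WRKY genes were taken as all soybean probe sets whose only gene symbol in the platform annotation starts with WRKY and a number. This gave 103 probe sets for 52 genes, out of 37593 soybean probe sets on the array. Of the 52 genes, 26 had more than 1 probe set, so the probe sets are not independent readings of 103 transcripts. Probe sets of 1 gene are told apart here by a letter, from a for the highest mean log2 signal downward. They were measured in embryo proper and suspensor of the scarlet runner bean, Phaseolus coccineus, cultivar Hammond's Dwarf Red Flower, at the globular stage 6 days after hand pollination. Each region was cut by laser from fixed, paraffin-embedded seed sections of 6 µm and was represented by 2 samples, which the labels call biological replicates without naming plants, so a p-value here reflects the spread between samples that may be technical. All 4 samples share this cultivar and the growth conditions, 16 h light and 8 h dark at 22 °C, and the labels name no treatment beyond pollination and fixation. Bean RNA was hybridised to probes designed for soybean, so a weak signal may mean a sequence mismatch as well as a low transcript level.

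Input RNA was 60 and 75 ng for embryo proper arrays 1 and 2, and 106 and 137 ng for suspensor arrays 1 and 2. The hybridisation control probe sets, which read spiked bacterial and phage RNA, had medians of 46706 and 58957 in embryo proper, against 97327 and 159448 in suspensor. Input and spike signal thus differed with the region, and their part in the results was not tested. No marker symbol chosen for seed coat or endosperm matched the annotation (0 matches), so the regions were not checked against markers of those tissues. With 2 arrays per region, precision is low. Signals are the deposited intensities on a linear scale.

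Few WRKY probe sets gave a signal above background in either region. A probe set counted as above background when it exceeded the 95th percentile of 23350 Phytophthora and nematode probe sets on that array, which were not designed for plant genes. This level lay at 881 and 873 in embryo proper, against 925 and 1034 in suspensor. In embryo proper, 11 and 19 of the 103 probe sets were above it on arrays 1 and 2, or 10.7% and 18.4%. In suspensor, 10 and 15 were above it, or 9.71% and 14.6%. Over all soybean probe sets the shares were 23.3% and 23% in embryo proper, against 21.8% and 19.5% in suspensor, and over the Phytophthora and nematode probe sets the share is 5% by construction. Each array thus showed a WRKY share between these levels. Replicate arrays of a region differed more in this share than the region means did. In these bulk samples, fewer cells expressing a gene and less RNA per cell cannot be told apart.

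**Figure D1:**
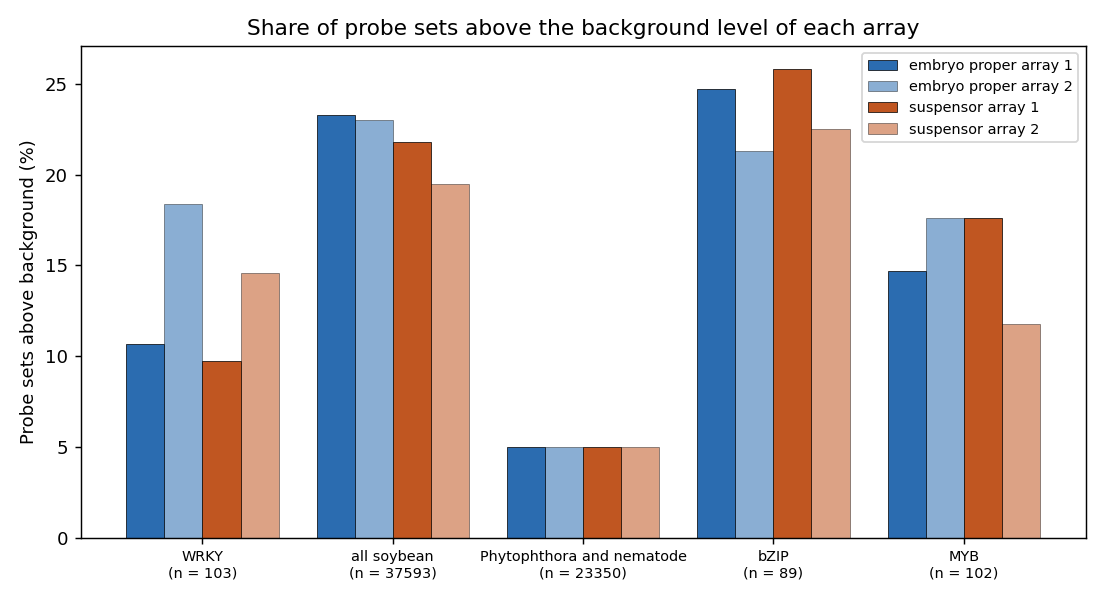
Share of probe sets above the background level of each array (%), for WRKY probe sets, all soybean probe sets, the Phytophthora and nematode probe sets that set the level, and bZIP and MYB probe sets; each bar is 1 array. The WRKY bars lie between 9.71% and 18.4%, above the 5% of the background probe sets and below the 19.5% to 23.3% of all soybean probe sets.

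Repeated detection was rarer still. On both arrays of embryo proper 8 WRKY probe sets passed the level (7.77%, against 18.1% of all soybean probe sets), and on both suspensor arrays 5 were (4.85%, against 14.7%). On at least 1 array 28 probe sets passed (27.2%, against 34.3% of all soybean and 12.1% of Phytophthora and nematode probe sets). On at least 2 arrays 15 passed (14.6%, against 23.9% and 4.7%), and on all 4 arrays 3 passed (2.91%, against 11.9% and 0.976%). By gene, 19 of 52 had a probe set above background on at least 1 array, and 33 had none on any array. The same count over all soybean genes was not made, and genes with more probe sets had more chances to pass. These shares are descriptions with no test.

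The bZIP and MYB transcription factor families, which also have numbered symbols on the array, were read the same way. Of 89 bZIP probe sets, 18% passed on both arrays of embryo proper and 19.1% on both of suspensor. Of 102 MYB probe sets, 10.8% and 6.86% were. On single arrays the MYB shares were 14.7% and 17.6% in embryo proper, against 17.6% and 11.8% in suspensor, so the WRKY share was above the MYB share on array 2 of each region and below it on array 1. These differences were not tested.

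The brightest WRKY signals stood little above background. The highest member on each array was a WRKY23 probe set at 2078 on embryo proper array 1 (2.36 times the background level), WRKY35 at 2904 on embryo proper array 2 (3.33 times), WRKY24 at 2283 on suspensor array 1 (2.47 times) and WRKY39 at 2498 on suspensor array 2 (2.42 times). These values lay at the 90.6, 93.3, 91.9 and 93.9 percentile of all soybean probe sets on their arrays. A different gene led on each array. By mean log2(intensity + 16) over the 4 arrays the 5 brightest were WRKY35 (10.96), WRKY23 a (10.93), WRKY39 a (10.67), WRKY33 a (10.56) and WRKY23 b (10.19). The median WRKY signal was 188 and 244 in embryo proper, against 272 and 344 in suspensor, between the medians of the Phytophthora and nematode probe sets (125 and 130, 133 and 158) and those of all soybean probe sets (348 and 354, 354 and 403). Signals of different probe sets do not rank transcript levels, since each probe set binds bean RNA to its own degree.

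**Figure D2:**
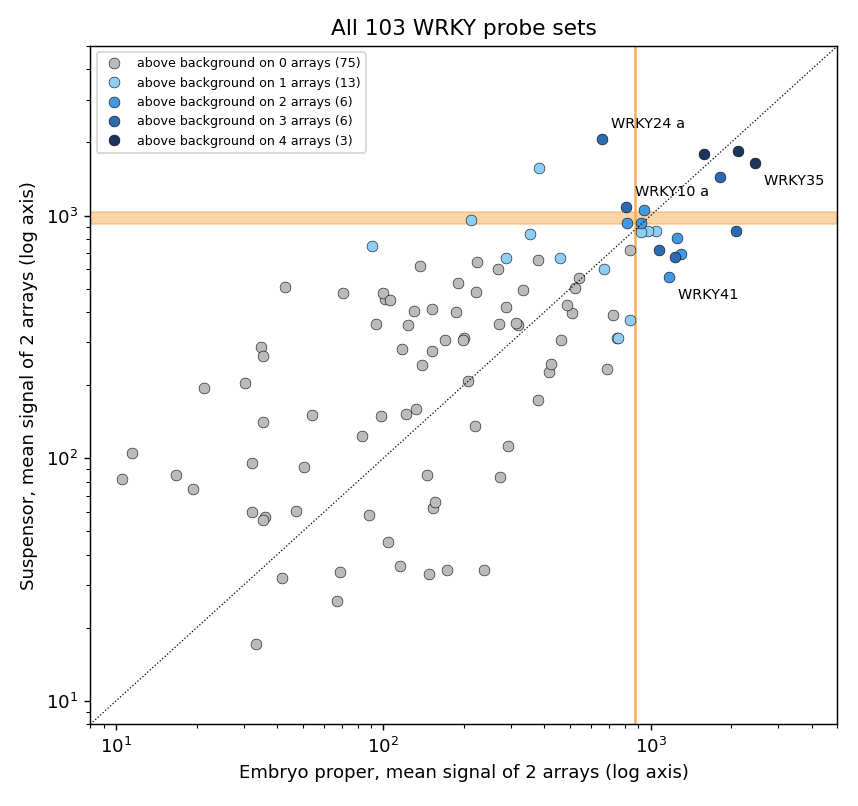
Mean signal of the 2 suspensor arrays against mean signal of the 2 embryo proper arrays for all 103 WRKY probe sets (both axes log scale); shading marks the background levels, 873 to 881 in embryo proper and 925 to 1034 in suspensor, and the dotted line marks equal signals. The 75 grey points were below background on all 4 arrays, and the 3 darkest were above it on all 4.

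Setting suspensor against embryo proper asks which WRKY transcripts differ in level between the region that forms the plant and the stalk that supports it. It found none that did at the threshold used. Of the 15 probe sets tested, for 12 genes, 0 were called by limma (adjusted p under 0.05), and the unadjusted p was under 0.05 for 0. Over all 8972 soybean probe sets in the same fit, 2.75% were called (0.892% upward in suspensor, 1.86% upward in embryo proper), and 20.1% had an unadjusted p under 0.05. At 2.75%, fewer than 1 call would fall among 15 probe sets, so the count of 0 is near the background. A missed threshold does not show equal levels: the median standard error of a WRKY difference was 0.74 on the log2 scale, against 0.44 over all tested probe sets, and the smallest difference called anywhere was 1.46 in absolute size.

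**Figure D3:**
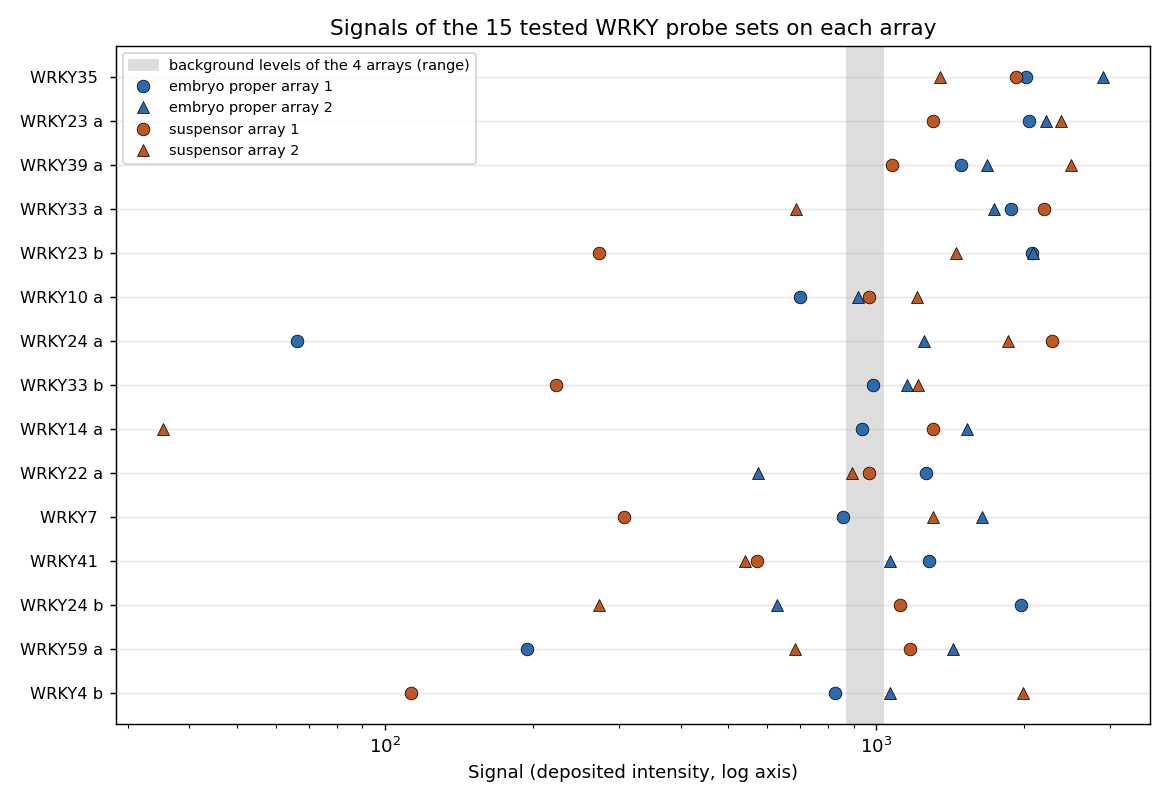
Signal of each of the 15 tested WRKY probe sets on the 4 arrays (log axis; circles are array 1 and triangles array 2 of a region), with the range of background levels, 873 to 1034, in grey. Replicates of a region lie far apart in several rows, such as WRKY14 a in suspensor (1309 and 35.3) and WRKY24 a in embryo proper (66.2 and 1253).

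WRKY35, WRKY23 and WRKY39 were the genes with a probe set above background on all 4 arrays; the other probe sets of WRKY23 and WRKY39 were above background on fewer arrays or on none. WRKY35 read 2024 and 2904 in embryo proper, against 1927 and 1353 in suspensor. Its regions did not overlap, with embryo proper higher, but the arrays nearest to each other, 2024 and 1927, differed by less than replicates did. The log2 difference, suspensor minus embryo proper, was -0.58 (SE 0.39, 95% interval -1.5 to 0.34, limma adjusted p = 0.43). WRKY23 a read 2047 and 2214 in embryo proper, against 1308 and 2377 in suspensor. The suspensor arrays stood on either side of the embryo proper arrays, and the log2 difference was -0.27 (SE 0.41, 95% interval -1.23 to 0.7, limma adjusted p = 0.74). WRKY39 a read 1486 and 1682 in embryo proper, against 1080 and 2498 in suspensor. Here too the suspensor arrays enclosed the embryo proper arrays. The log2 difference was 0.06 (SE 0.48, 95% interval -1.07 to 1.18), with a limma adjusted p of 0.96, and turned to -0.11 when the Phytophthora and nematode probe sets were used to centre the arrays.

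WRKY23 b, whose identifier has the same stem as that of WRKY23 a, gave a larger difference. Its signals were 2078 and 2088 in embryo proper, against 273 and 1455 in suspensor. The regions did not overlap, and suspensor array 1 was below background. The log2 difference was -1.69 (SE 0.74, 95% interval -3.43 to 0.06, limma adjusted p = 0.26, unadjusted p = 0.056). Without suspensor array 2 it became -2.86, the single WRKY difference called in any setting tried. In that setting the lone suspensor array, the one below background, was assumed to vary like embryo proper. Without suspensor array 1 the difference was -0.51. The 2 WRKY23 probe sets gave differences of -0.27 and -1.69, and an x in the identifier of the latter marks probes that may bind other transcripts, as does that of WRKY39 a.

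WRKY24 had the greatest positive difference of the tested probe sets, and its tested probe sets pointed in opposite directions. WRKY24 a read 66.2 and 1253 in embryo proper, against 2283 and 1859 in suspensor. Both suspensor arrays were above both embryo proper arrays, and embryo proper array 1 was far below background. The log2 difference was 2.68 (SE 1.18, 95% interval -0.09 to 5.46, limma adjusted p = 0.26, unadjusted p = 0.056). It was 4.66 without embryo proper array 2 and 0.71 without embryo proper array 1, so that 1 array set most of its size. WRKY24 b, of the same identifier stem, read 1969 and 630 in embryo proper, against 1119 and 273 in suspensor. The regions overlapped there, and the difference was -0.98 (SE 0.87, limma adjusted p = 0.55). WRKY24 c, of that stem too, was below background on all arrays and was not tested.

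WRKY41 was the 1 member detected on 2 arrays of embryo proper and 0 of suspensor. Its signals were 1281 and 1068 in embryo proper, against 572 and 540 in suspensor. Replicates lay close together in both regions and the regions did not overlap. Since the suspensor has only a bound, the fold was computed against the lowest soybean signal above background on those arrays. The mean embryo proper signal of WRKY41 was 1.19-fold that level. Being picked for this detection pattern all but fixes a fold above 1 and regions that do not overlap, so neither is evidence of a difference. The measured log2 difference was -1.05 (SE 0.54, 95% interval -2.33 to 0.22) and did not pass (limma adjusted p = 0.33). It stayed between -1.18 and -0.92 when 1 array was left out. One such probe set of 103 is 0.971%, against 2.41% of all soybean probe sets with that pattern. The reverse pattern, detection on 2 arrays of suspensor and 0 of embryo proper, was shown by 0 WRKY probe sets, against 1.12% of all soybean probe sets.

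WRKY10 a was dim in both regions, and WRKY10 b was below background on all arrays. The signals of WRKY10 a, 702 and 918 in embryo proper against 967 and 1211 in suspensor, did not overlap, and the lowest was below background. The log2 difference was 0.42 (SE 0.49, 95% interval -0.73 to 1.57, limma adjusted p = 0.65). In all, the regions did not overlap for 5 of the 15 tested probe sets (33.3%), against 53.2% of all tested probe sets: 2 with suspensor higher, for WRKY10 and WRKY24 (13.3%, against 19.8%), and 3 with embryo proper higher, for WRKY23, WRKY35 and WRKY41 (20%, against 33.4%). The WRKY shares were below those of all tested probe sets, and nothing particular to the family is read from them.

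Both WRKY33 probe sets were above background on 3 arrays. WRKY33 a read 1885 and 1742 in embryo proper, against 2193 and 688 in suspensor, and WRKY33 b read 988 and 1158 against 223 and 1219. In each, 1 suspensor array was below background while the other was the highest of the 4, and it was array 2 in the first case and array 1 in the second. The log2 differences were -0.55 (SE 0.57) and -1 (SE 0.85), with limma adjusted p of 0.61 and 0.54. WRKY14 a showed the widest replicate gap of the tested probe sets, with 935 and 1533 in embryo proper, against 1309 and 35.3 in suspensor. Its log2 difference of -2.22 (SE 1.52, 95% interval -5.8 to 1.36, limma adjusted p = 0.44) rested on suspensor array 2, without which it was 0.13. WRKY14 b was below background on all arrays.

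The remaining 4 tested probe sets were above background on 2 arrays each. WRKY7 read 858 and 1643 in embryo proper, against 307 and 1305 in suspensor, above background on array 2 of each region, with a log2 difference of -0.88 (SE 0.77). WRKY4 b had 824 and 1066 against 113 and 1994, a difference of -0.91 (SE 1.24), again above background on array 2 of each region. WRKY22 a had 1263 and 575 against 968 and 894, a difference of 0.12 (SE 0.57) that became -0.04 under that same centring. None of these separated the regions. WRKY59 a had 194 and 1435 against 1175 and 683, a difference of 0.72 (SE 0.99), while WRKY59 b was below background on all arrays. The limma adjusted p was 0.55 for WRKY7, 0.71 for WRKY4 b, 0.93 for WRKY22 a and 0.71 for WRKY59 a.

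**Figure D4:**
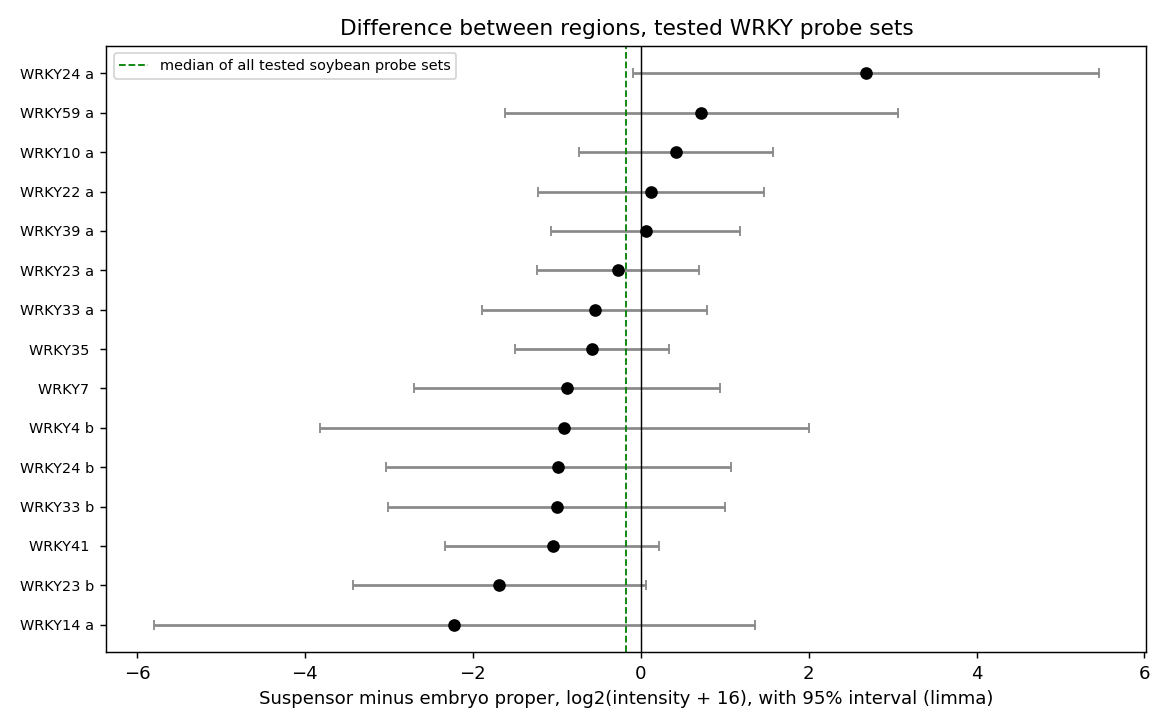
Log2 difference between suspensor and embryo proper for the 15 tested WRKY probe sets (points), with 95% intervals from limma (bars); the dashed line is the median of all tested soybean probe sets, -0.18. Each interval includes 0, and the probe sets of WRKY24 lie on either side of it, at 2.68 and -0.98.

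Over the 15 tested probe sets, 5 had a difference above 0 and 10 below 0, with a range of -2.22 to 2.68. Their median was -0.58, beside -0.18 over all tested probe sets, and it became 0.13 without suspensor array 1 and 0.06 over all 103 members when dim probe sets were kept. The spread between replicates differed by region. The median gap between replicate arrays of the tested WRKY probe sets was 0.38 on the log2 scale in embryo proper, near the 0.36 of all tested probe sets, and 1.2 in suspensor, against 0.56. In 12 of the 15 (80%) the gap between replicates in a region exceeded the difference between region means, against 61.7% of all tested probe sets. Leaving out 1 array changed the sign of 10 of the 15 (66.7%), against 36.7% of all tested probe sets. These 10 were the probe sets of WRKY4, WRKY7, WRKY14, WRKY22, WRKY39 and WRKY59, both of WRKY33, and 1 each of WRKY23 and WRKY24. The 2 sets differ in brightness: 3 of the 15 passed the background level on all 4 arrays, against 4480 of the 8972 tested. Whether equally dim probe sets show such gaps and sign changes was not tested, so no trait of the family is read from these shares.

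A further 13 probe sets passed the background level on 1 array alone and were not tested. Of these 6 passed on embryo proper array 2, for WRKY4, WRKY9, WRKY32, WRKY37, WRKY39 and WRKY51. Another 6 passed on suspensor array 2, for WRKY4, WRKY22 with 2 probe sets, WRKY25, WRKY39 and WRKY50. The last, WRKY54, passed on embryo proper array 1, and 0 passed on suspensor array 1. Array 2 of each region thus held 46.2% of these single detections apiece, against 24.8% and 26% over all soybean probe sets above background on 1 array.

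Among these were WRKY4 a and WRKY4 c, which share an identifier stem. WRKY4 a read 336 and 430 in embryo proper, against 895 and 2230 in suspensor, while WRKY4 c had 672 and 998 against 386 and 353. Each passed the background level on 1 array, so no difference is given and neither was tested. An s in the identifier of WRKY4 c marks probes shared by more than 1 transcript.

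By selection, each of the other single detections had its own replicate below the level, and the gaps between replicates ran from narrow to wide. WRKY9 a had 488 and 1013 in embryo proper, against 260 and 368 in suspensor, and WRKY51 a had 452 and 1056 against 428 and 197. WRKY37 a had 331 and 1002 against 921 and 288, and WRKY39 b had 597 and 1494 against 845 and 879. These passed on embryo proper array 2, and the 921 of WRKY37 a lay just under the level of 925 on suspensor array 1. WRKY32 a had 855 and 982 in embryo proper, against 786 and 917 in suspensor, all near background. The other probe sets of WRKY9, WRKY32, WRKY37 and WRKY51 were below background on all arrays. WRKY25 had 428 and 145 in embryo proper, against 255 and 1083 in suspensor, and WRKY50 had 662 and 42.3 against 326 and 1344. WRKY39 d had 505.5 and 410 against 123 and 1214. These passed on suspensor array 2. The widest of these gaps was in WRKY22, where probe set e had 40.4 and 1460 in suspensor, against 102.5 and 79.4 in embryo proper. Probe set c had 448 and 1465 in suspensor, against 180 and 244. The identifiers of WRKY37 a, WRKY51 a and WRKY39 d also carry the s of shared probes.

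WRKY54, linked to salt and drought tolerance when expressed in Arabidopsis, read 1300 and 650 in embryo proper, against 872 and 851 in suspensor. WRKY21, linked to cold tolerance in the same way, was below background on all arrays by both of its probe sets, with signals from 9.6 to 594. WRKY27, linked to salt and drought tolerance in soybean, was below background by all 3 of its probe sets, with signals from 6.8 to 582. The soybean gene with the symbol WRKY2 had 22 and 20.6 in embryo proper, against 345 and 43.1 in suspensor, all below background.

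In all 75 probe sets were below background on all 4 arrays, with signals from 6.8 to 908 and a median of 117 in embryo proper and 183 in suspensor. The 33 genes with no signal above background were WRKY2, WRKY5, WRKY6, WRKY8, WRKY12, WRKY15, WRKY16, WRKY17, WRKY19, WRKY21, WRKY27, WRKY28, WRKY29, WRKY30, WRKY34, WRKY36, WRKY38, WRKY40, WRKY43, WRKY44, WRKY46, WRKY47, WRKY48, WRKY52, WRKY53, WRKY55, WRKY56, WRKY57, WRKY58, WRKY60, WRKY62, WRKY63 and WRKY64. A signal below background does not show that a transcript was absent.

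Genes on 4 lists of symbols were also read, 29 probe sets for 19 genes. The lists covered kinases, immune signalling, pathogenesis-related genes and early embryo patterning. A place on a list does not show that a gene acts with a WRKY factor. Of 6 tested, 0 were called by limma, against 2.75% of all tested probe sets, and 1, SERK1, had an unadjusted p under 0.05, against 20.1%. Of the kinases on the list, MAPK2 and MPK4B were above background on all 4 arrays. MAPK2, a mitogen-activated protein kinase, read 4265 and 3298 in embryo proper, against 4507 and 3924 in suspensor, with a log2 difference of 0.16 (SE 0.33). MPK4B, a kinase of the same class, had 2200 and 2604 against 4032 and 2603, a difference of 0.43 (SE 0.37), and MAPKK2, a kinase one step upstream, had 1315 and 1760 against 883 and 1674 by the 1 of its 3 probe sets that was tested, a difference of -0.32 (SE 0.46). Its value of 883 was below background, as were the other 2 probe sets on all arrays. The limma adjusted p was 0.81 for MAPK2, 0.53 for MPK4B and 0.73 for MAPKK2.

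Of 6 genes of salicylic acid and immune signalling, 2 were tested. PAD4, a lipase-like regulator of defence, read 1286 and 940 in embryo proper, against 1618 and 882 in suspensor (log2 difference 0.12, SE 0.48, limma adjusted p = 0.92). RAR1-1, a co-chaperone of immune receptors, had 991 and 2002 against 2351 and 748 (log2 difference -0.08, SE 0.63, limma adjusted p = 0.96). The regions overlapped for both genes. A further probe set of each gene was below background on all arrays and was not tested. EDS1-2, NDR1A, NDR1b and RIN4c were below background on all arrays. So were all 13 probe sets of the 8 pathogenesis-related genes, which included PR1-1, PR1-7, PR10 and the chitinase CHIA1, with signals from 10.6 to 803. Over all soybean probe sets, 34.3% were above background on at least 1 array, so most were below it on all arrays too.

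Of the early embryo list, only SERK1, a receptor kinase of embryogenic cells, and LEC1-A, a regulator of embryo development, matched the annotation. The homeobox genes on that list had no match by symbol. SERK1 read 16217 and 18616 in embryo proper, against 8245 and 4002 in suspensor, a log2 difference of -1.59 (SE 0.4, limma adjusted p = 0.089, unadjusted p = 0.0052). It was called when detection on all 4 arrays was required and without suspensor array 1, settings in which 11.7% and 13.5% of all tested probe sets were called. LEC1-A was below background on all arrays, with 250 and 181 in embryo proper, against 360 and 823 in suspensor.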

How the data were processed

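The authors deposited 1 linear intensity per probe set and array. The submitters' processing notes name GCOS 1.3; its summary method is not given in the sources used here. Each array had a mean of 500 once 2% of values were trimmed from either end, and the deposited intensities were used on that scale. Per the labels' protocols, RNA was amplified and about 200 ng of cDNA was labelled, and amplification from small inputs favours 3' ends.

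Symbols came from the platform annotation; 0 WRKY members matched the bean gene table by identifier or symbol, so no positions or sequences are given. Of 37593 soybean probe sets, those above background on at least 2 of 4 arrays were tested as log2(intensity + 16) with lmFit and eBayes (variance trend) in limma 3.58.1 under R 4.3.3, with Benjamini-Hochberg adjustment over all 8972. A fold on that scale understates changes of dim probe sets. The fit was also run on simulated data drawn from its own noise model with known shifts added. That run checks the code and not how well the fit suits these arrays. Members above background on at least 1 array were to be named with their signals. The members and lists were chosen with earlier results of these data known. Alternatives covered the pseudocount, scaling, background level, filter, shared probes, variance trend, replicate block and leaving out each array.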

Additional observations from a re-analysis of the deposited data

How the results depend on the processing

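All settings were planned. In the 11 settings that kept all arrays, 0 WRKY probe sets were called, with adjusted p from 0.13 to 0.98; of 142 values of the tested probe sets, 2 changed sign, WRKY22 a to -0.04 and WRKY39 a to -0.11, both with arrays centred on the background probe sets. With the replicate block, 0 WRKY probe sets were called and the smallest limma adjusted p was 0.13. The labels give shared numbers no meaning, so the arrays were not taken as pairs. Deviations of same-numbered arrays had a correlation of -0.024 across probe sets, which cannot show whether arrays were paired. With 1 array left out, WRKY probe sets called numbered 0 to 0 higher in suspensor and 0 to 1 higher in embryo proper, and list genes 0 to 1; the lone array was then assumed to vary like the other region. Differences then ranged from -4.56 to 0.13 for WRKY14 a, -0.43 to 0.68 for WRKY22 a, -0.54 to 0.65 for WRKY39 a, -2.89 to 1.08 for WRKY4 b, -0.67 to 2.12 for WRKY59 a and -1.9 to 0.13 for WRKY7. They ranged from -0.7 to 0.16 for WRKY23 a, -2.86 to -0.51 for WRKY23 b, -1.97 to 0 for WRKY24 b, and -2.18 to 0.19 and -1.38 to 0.27 for WRKY33 b and WRKY33 a. SERK1, the 1 list gene called when detection on all 4 arrays was required, was not called otherwise with all arrays kept; fewer probe sets were tested there. WRKY probe sets above background on both embryo proper and both suspensor arrays, 8 and 5 as reported, were 5 and 1 at the 99th percentile and 14 and 10 at the 90th, so detection rests on the level chosen. Over all soybean probe sets, calls for suspensor and for embryo proper numbered 80 and 167 as reported, 185 and 233 after quantile normalization, 138 and 292 with the replicate block and 21 and 66 without a variance trend. Such calls numbered 7 and 7 or 3 and 3 without embryo proper array 1 or 2, and 153 and 1054 or 145 and 314 without suspensor array 1 or 2, so the share called, 2.75% as reported, ran from 0.0669% to 13.5%; the cause was not tested.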

Other observations

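Outside the 103 members, 6 soybean probe sets list 2 gene symbols with a WRKY gene among them, and no gene is named from them. Of these 1 passed the background level on every array and read 4040 and 2343 in embryo proper, against 1421 and 1204 in suspensor. Its regions did not overlap, and its log2 difference of -1.22 (SE 0.4) did not pass limma's test (adjusted p = 0.17, unadjusted p = 0.018). Another 1 was above background on 1 array and 4 on none.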
